A study of Pyrus communis with 6 samples.

Results

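The probes described here are the oligonucleotides on a pear expression array whose identifier begins with DITSSH. The array carries 289 of them among 21681 probes other than controls, and each is printed as 2 spots. Members were chosen by that prefix and by detection: on 3 or more of the 6 arrays, the scanner software had to mark a share of 0.5 or more of a probe's spots as well above background. This left 169 of the 289, among 16339 probes of all kinds that met the same condition. The scanner files give no gene or description for any DITSSH identifier, nor the meaning of the prefix. Compared by name, 0 of the 289 matched a RefSeq gene table of European pear. The members are therefore described by identifier, level and difference, with no gene named.

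The arrays compare the receptacle of 2 cultivars of European pear (Pyrus communis), 'La France' and 'Giant Laf'. Giant Laf is a bud mutant of La France, propagated as a line of its own, and both were grown as orchard trees. Each cultivar has 3 arrays, which the series design calls biological replicates; the sources used here do not give the number of trees behind them. Flower buds were sampled in 2010, 1 week before full bloom, the receptacle was cut from them by laser microdissection, and its RNA was amplified and labelled with Cy3, 1 sample per array.

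In pear the receptacle surrounds the ovary and grows into the flesh of the fruit, and its growth bears on fruit size. A bud mutant arises when a cell of a shoot meristem acquires a somatic change and the shoot that grows from it is propagated by grafting. Apart from somatic change its genome is taken to be that of the parent, and the extent of the change in Giant Laf was not examined here. A comparison of the same organ at the same stage asks which transcripts differ between the pair. A probe on such an array reports the transcript that binds it, and its brightness depends on the probe as well as on the amount of RNA. In tissue samples such as these, fewer cells that express a transcript and less of it per cell cannot be told apart. The labelled tissue was not checked against marker genes: the files name no gene for a probe of any kind, and 0 of the 21681 identifiers matched the RefSeq table. That match compared names only and no sequences, so it does not show which probes could be tied to known genes.

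Across the series, the 75th percentile of the processed signal ran from 799.5 to 1638.8 between arrays, and 73.93% to 77.16% of all probes were well above background on an array. No spot was saturated. The software marked 3 to 28 spots per array as outliers, of which 1 belonged to a DITSSH probe. Giant Laf replicates 1 to 3 and La France replicate 1 lay on slide 1, and La France replicates 2 and 3 on slide 2. Levels below are log2 processed signals relative to the 75th percentile of their array, so that a level of 0 is that percentile. Differences are Giant Laf minus La France on this log2 scale, and "lower" always means lower in Giant Laf.

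DITSSH probes were detected less often than the rest of the array, a measure that the choice of members used and that is given without a test. The 169 detected make up 58.5% of the 289, against 75.6% of the 21392 other probes (16170 detected). On single arrays, 177, 172 and 170 of the 289 were well above background in Giant Laf and 162, 173 and 165 in La France, in replicate order. The ranges of the cultivars overlapped. These shares ran from 56.1% to 61.2%, and those of the other probes from 74.2% to 77.4%. Detection was mostly a matter of all arrays or none: 156 of the 289 (54.0%) were well above background on all 6 arrays and 93 (32.2%) on none. Among the other probes these shares were 71.4% and 18.7%.

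Few members lay close to the limit of detection, and those on either side are named for that. Those detected on 3 arrays, just inside it, were DITSSH46, DITSSH111, DITSSH153, DITSSH175 and DITSSH200, with mean levels from -6.68 to -5.59. Those detected on 2 arrays, just outside it, were DITSSH14, DITSSH46R2007a, DITSSH89, DITSSH93R2007a and DITSSH188, with mean levels from -7.42 to -6.54. A further 22 probes were detected on 1 array. The array concerned was Giant Laf replicate 1 or 3 for 6 probes each, La France replicate 2 for 5, La France replicate 3 for 3, and Giant Laf replicate 2 or La France replicate 1 for 1 each, so these single detections came from every array. The 93 probes detected nowhere had mean levels from -8.84 to -6.93.

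The identifiers fall into a numbered series. They run from DITSSH2 to DITSSH200 with 181 of these numbers in use, and 108 numbers carry 2 probes while 73 carry 1. The second probe of a number has the ending R2007a or S2007a, which the files do not explain. Of the 178 probes with no ending, 116 were detected (65.2%). Of the 86 with R2007a, 39 were (45.3%), and of the 25 with S2007a, 14 were (56.0%). Probes that share a number were mostly detected together. Both were detected for 51 of the 108 numbers, neither for 50, and only 1 of the 2 for 7, in 6 cases the probe with no ending. The 169 members thus cover 118 numbers, and members of 1 number may not be independent readings: the files do not say whether they target the same transcript.

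The detected DITSSH probes were dimmer than the rest. Array by array their median level came to -3.13, -3.33 and -3.44 in Giant Laf, and to -3.10, -3.37 and -3.50 in La France, in replicate order. That is a mean of -3.30 ± 0.16 for Giant Laf against -3.32 ± 0.20 for La France (SD over 3 arrays each), so the cultivars differed by less than the spread between their arrays. The other detected probes had medians between -1.22 and -1.13 on the 6 arrays. The gap between the DITSSH median and that of the others averaged -2.15 ± 0.15 for Giant Laf arrays and -2.12 ± 0.19 for La France arrays (SD, n = 3), and it lay between -2.28 and -1.91 on every array. These figures describe probe brightness and do not rank transcripts.

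Within the 169, levels were wide apart. Averaged over the 6 arrays they ran from -6.94 to 5.10, with quartiles at -4.91 and -0.06. When all 16339 detected probes were put in 5 classes of equal size by mean level, the dimmest class held 69 DITSSH probes (40.8% of them) and the next 35 (20.7%). The third to the fifth class held 15, 22 and 28. The members were thus gathered at the dim end, with a smaller number among the brightest probes.

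The brightest members were DITSSH166S2007a and DITSSH96, which were well above background on all arrays. DITSSH96 stood at 4.42, 4.15 and 4.45 in Giant Laf and at 4.77, 4.63 and 4.36 in La France, in replicate order. The La France replicate 3 array lay inside the Giant Laf range, and the cultivars overlapped. The difference was -0.25 (SE 0.15, 95% confidence limits -0.61 and 0.12, adjusted p = 0.441 by limma).

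Repeat spots of a DITSSH probe lay close together. From paired spots on 1 array, the SD of a spot was estimated at 0.072 to 0.119 log2 units over the 169 members, against 0.070 to 0.089 for the other detected probes. Between arrays of a cultivar members had a median SD of 0.19 for Giant Laf and 0.21 for La France, and the other probes 0.16 and 0.17. In the dimmest class the pooled SD within a cultivar had a median of 0.31 for members and 0.33 for other probes, and in the brightest class 0.15 and 0.18. The spread between arrays thus varied with brightness among the members and among the others, and members lay below the others in 4 of the 5 classes, the exception being the second dimmest (0.24 against 0.20). A pooled SD above 0.5 was seen in 19 members (11.2%) and in 9.91% of the others.

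The members whose arrays spread most within a cultivar were DITSSH175 and DITSSH200, both detected on 3 arrays. DITSSH200 stood at -7.51, -5.96 and -5.55 in Giant Laf and at -6.34, -7.41 and -5.87 in La France, in replicate order. Each cultivar held high and low arrays, and the ranges overlapped. Its difference was 0.20 (SE 0.61, 95% confidence limits -1.27 and 1.67, adjusted p = 0.888 by limma), and its sign turned with the processing.

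The comparison of the cultivars asks whether transcripts reported by these probes differ between the bud mutant and its parent. No member passed an adjusted p of 0.05 in limma, where p-values were adjusted over all 16339 probes, and the smallest adjusted p of a member was 0.256. Over all detected probes the share past this threshold was 0.00% as well, overall and in each direction. At an unadjusted p below 0.05 there were 20 members (11.8%), on a background of 16.0% over all detected probes. Of these, 16 were higher (9.47%, background 10.6%) and 4 lower (2.37%, background 5.36%). With all arrays and this scaling the members' shares were thus under those of the whole array, but the order was not stable. Over 20 alternatives the members' share at an unadjusted p below 0.05 was above that of all probes tested in 8 and below it in 12. It was above after quantile normalization (32 members, 18.9% against 15.3%), with slide as a block (24, 14.2% against 9.62%), with the replicate number as a block (26, 15.4% against 14.7%) and without Giant Laf replicate 3 (36, 21.3% against 19.1%). It was below with array weights (43, 25.4% against 26.2%), with normexp background correction (10, 5.92% against 11.4%) and without La France replicate 3 (36, 21.3% against 22.7%). The same held without Giant Laf replicate 2 (13, 7.69% against 9.50%) and when the first La France array was left out (12, 7.10% against 10.5%). At an unadjusted p below 0.01 there were 7 members (4.14%) against 3.86% of all detected probes. Nothing particular to the members is read from these shares.

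The cultivars did not overlap, with every array of one above every array of the other, in 27 members (16.0%), against 22.3% of all detected probes. Of these, 20 were higher (11.8%, background 13.9%) and 7 lower (4.14%, background 8.40%). Leaving out an array can only keep or raise this count. The 27 became 76 without Giant Laf replicate 3 (45.0%, against 39.5% of all detected probes). They became 68 without La France replicate 3 (40.2% against 45.2%) and 48 without La France replicate 2 (28.4% against 29.0%). Without Giant Laf replicate 1 there were 36 (21.3% against 30.5%) and without Giant Laf replicate 2 there were 32 (18.9% against 28.0%). Without La France replicate 1 there were 39 (23.1% against 29.7%). The rise thus differed with the array left out, and the reason was not tested. A difference of at least 2-fold, whatever the p, was seen in 5 members (2.96%, background 2.32%). All 5 were higher (background 1.51%) and 0 were lower (background 0.808%).

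The median difference over the members was -0.013, with quartiles at -0.22 and 0.22, and 83 members were above 0 and 86 below. Over all detected probes the median was 0.024, with quartiles at -0.16 and 0.21. In size, the difference had a median of 0.22 in the members and 0.19 in all detected probes. The single differences of members ran from -0.58 to 1.54. The 95% interval lay within 2-fold in either direction for 135 of the 169 members (79.9%), against 81.8% of all detected probes. For the other 34 members, the arrays allow a difference of 2-fold or more in at least 1 direction.

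The split between higher and lower depended on how the arrays were scaled. At an unadjusted p below 0.05 there were 16 higher and 4 lower members with 75th percentile scaling, 13 and 13 with median centring, 22 and 10 after quantile normalization and 18 and 9 after cyclic loess. The higher ones were 80.0%, 50.0%, 68.8% and 66.7% of the members past that p in these settings, and 66.5%, 35.3%, 56.2% and 56.0% of all detected probes past it, so the split over the array moved with the scaling as well. With slide as a block there were 9 higher and 15 lower, and within slide 1 alone 12 and 13. Both of those settings rest on La France replicate 1 as the only La France array on slide 1, which was there assumed to vary like the others, and slide 2 holds La France arrays only. No direction for the members as a group is read from these splits.

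The 20 members at an unadjusted p below 0.05 belong to 17 numbers. Their differences had sizes from 0.23 to 1.54 with a median of 0.56, and their adjusted p-values in limma ran from 0.256 to 0.310. In 16 of them the cultivars did not overlap, and 15 were well above background on all arrays. A choice by p in these same arrays favours cultivars that do not overlap. The matching share over all detected probes past that p was not counted, so the 16 are no added support.

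The higher member of smallest p was DITSSH199, well above background on all arrays. It stood at -4.09, -4.07 and -4.14 in Giant Laf and at -4.40, -4.53 and -4.56 in La France, in replicate order. Every Giant Laf array lay above every La France array, with little spread in either cultivar. The means were -4.10 ± 0.03 and -4.50 ± 0.09 (SD, n = 3 each), 1.31-fold higher in Giant Laf. The difference was 0.39 (SE 0.10, 95% confidence limits 0.16 and 0.63, adjusted p = 0.256 by limma). With normexp background correction it was 0.10. That setting adds an offset of 50 to every signal, which by itself narrows the differences of dim probes, here and below.

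The next was DITSSH15R2007a, at -3.68, -3.45 and -3.96 in Giant Laf and -4.50, -4.18 and -4.38 in La France. The cultivars did not overlap. It was 1.58-fold higher, a difference of 0.66 (SE 0.17, 95% confidence limits 0.26 and 1.06, adjusted p = 0.256 by limma). Its partner of the same number, DITSSH15, had nearly the same difference. It stood at -2.93, -2.58 and -3.08 in Giant Laf and -3.72, -3.29 and -3.63 in La France, again without overlap. DITSSH15 was 1.60-fold higher, a difference of 0.68 (SE 0.18, 95% confidence limits 0.24 and 1.11, adjusted p = 0.256 by limma). With normexp the differences of the 2 probes were 0.22 and 0.31.

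The lower member of smallest p was DITSSH47. It stood at -6.04, -5.82 and -5.55 in Giant Laf and at -5.30, -5.03 and -5.33 in La France, and the cultivars did not overlap. It was 1.5-fold lower, a difference of -0.58 (SE 0.16, 95% confidence limits -0.97 and -0.19, adjusted p = 0.256 by limma). Its partner DITSSH47S2007a was well above background on 0 arrays, at a mean level of -7.42, and its difference of 0.16 had the other sign. The difference of DITSSH47 thus has no second reading from a detected probe. With normexp the difference of DITSSH47 was -0.25.

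DITSSH166S2007a, the next of the lower members, was also the brightest of the 169. It stood at 4.95, 4.82 and 5.04 in Giant Laf and 5.35, 5.28 and 5.15 in La France, and the cultivars did not overlap. It was 1.25-fold lower, a difference of -0.32 (SE 0.11, 95% confidence limits -0.59 and -0.05, adjusted p = 0.277 by limma). Its partner DITSSH166, at 4.37, 4.23 and 4.47 against 4.71, 4.61 and 4.33, had the same sign with overlapping cultivars. The difference of DITSSH166 was -0.19 (SE 0.14, 95% confidence limits -0.52 and 0.14, adjusted p = 0.511 by limma). After quantile normalization the differences of the 2 probes were -0.16 and -0.08.

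The remaining members lower at an unadjusted p below 0.05 were DITSSH16 and DITSSH67R2007a, named after their values were seen. DITSSH16 stood at -5.71, -6.26 and -5.85 in Giant Laf and -5.15, -5.72 and -5.31 in La France. The cultivars met at their edges, La France replicate 2 lying just below Giant Laf replicate 1. Its difference was -0.55 (SE 0.21, adjusted p = 0.296 by limma). DITSSH67R2007a stood at -6.79, -6.93 and -7.13 against -6.28, -6.64 and -6.65, without overlap, and was well above background on 2 arrays of each cultivar. Its difference was -0.42 (SE 0.15, adjusted p = 0.282 by limma). With normexp these differences were -0.23 and -0.19. Their detected partners, DITSSH16R2007a and DITSSH67, had the same sign but smaller differences, with overlapping cultivars. The difference was -0.26 for DITSSH16R2007a (SE 0.21, adjusted p = 0.560 by limma). For DITSSH67 it was -0.13 (SE 0.30, adjusted p = 0.849 by limma).

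The members at least 2-fold apart were DITSSH143, DITSSH130, DITSSH102, DITSSH175 and DITSSH130R2007a, named after their values were seen except DITSSH175. In each of the 5, Giant Laf replicates 1 and 2 were the highest arrays. Giant Laf replicate 3 lay within or below the La France range in 4 of them and above it in DITSSH130.

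DITSSH143 had the widest difference of all members. It stood at -4.12, -3.55 and -5.94 in Giant Laf and at -6.26, -6.07 and -5.90 in La France, in replicate order. Giant Laf replicate 3 lay just below La France replicate 3, and the other Giant Laf arrays stood clear of the rest. The means were -4.54 ± 1.25 and -6.08 ± 0.18 (SD, n = 3 each), a difference of 1.54 (SE 0.59, 2.91-fold, 95% confidence limits 0.13 and 2.96, adjusted p = 0.296 by limma).

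DITSSH102 stood at -3.98, -3.33 and -5.76 in Giant Laf and at -5.78, -5.56 and -5.65 in La France, and DITSSH175 at -4.33, -3.75 and -6.91 against -6.26, -6.08 and -6.21. Both resembled DITSSH143, with Giant Laf replicate 3 within or below the La France range. The difference of DITSSH102 was 1.31 (SE 0.59, 2.48-fold, adjusted p = 0.335 by limma). That of DITSSH175 was 1.18 (SE 0.78, 2.27-fold, adjusted p = 0.476 by limma), and 2 Giant Laf arrays and 1 La France array detected it.

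DITSSH130 and DITSSH130R2007a share a number. DITSSH130 stood at -4.88, -4.08 and -5.63 in Giant Laf and at -6.80, -6.05 and -5.87 in La France, the only one of the 5 without overlap. DITSSH130R2007a stood at -4.87, -4.05 and -5.36 against -6.32, -5.85 and -5.31, where La France replicate 3 reached just above Giant Laf replicate 3. Their differences were 1.37 (SE 0.43, 2.59-fold, adjusted p = 0.261 by limma) and 1.07 (SE 0.39, 2.10-fold, adjusted p = 0.287 by limma).

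Leaving out Giant Laf replicate 3 widened the differences of DITSSH143, DITSSH102 and DITSSH175 to 2.24, 2.01 and 2.14, and those of DITSSH130 and DITSSH130R2007a to 1.76 and 1.37. With normexp the 5 differences lay between 0.23 and 0.55, under 2-fold. Its offset of 50 narrows the differences of probes as dim as these, and it also starts from another signal, the median of the spot. How much of the narrowing came from either was not tested, so nothing is concluded from it. DITSSH102, DITSSH143 and DITSSH175 had both of the first 2 Giant Laf arrays at least 1 log2 unit above each of the other 4 arrays. These 3 make up 1.78% of the members, and 49 of all 16339 detected probes (0.300%) had that shape. For any other pair of arrays, 0 members and 0 to 34 of all detected probes did, the most being 34 for La France replicates 1 and 2. The shape was noticed in these data and has no test.

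Members of 1 number had similar differences. Among the 51 numbers with both probes detected, 43 (84.3%) had differences of the same sign, and the 2 differences were a median of 0.058 apart. In 41 of the 51 they were less than 0.2 apart. Where both were at least 0.2 in size, the sign was the same for 20 of 20 numbers. Across the 51 numbers the 2 differences correlated with a Pearson r of 0.897 and a Spearman rho of 0.905. The probes of a pair were read on the same arrays and from the same RNA, so this is a repeat of the reading and not of the biology. Pairs of other detected probes with a shared identifier stem, 6746 in all, had the same sign in 78.2% and were a median of 0.091 apart.

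Both probes reached an unadjusted p below 0.05 for the 3 numbers 5, 15 and 130, all higher in Giant Laf. The same count was not made for pairs of other probes, so nothing particular to the members is read from it. DITSSH5 and its partner were named after this was seen. DITSSH5 stood at 0.26, 0.28 and -0.06 in Giant Laf and at -0.16, -0.58 and -0.48 in La France. DITSSH5S2007a stood at 0.32, 0.33 and -0.0032 against -0.13, -0.46 and -0.41. Neither overlapped between cultivars, though Giant Laf replicate 3 was the lowest of its cultivar in both, as in DITSSH15, DITSSH130 and their partners. Their differences were 0.57 (SE 0.16) and 0.55 (SE 0.15), each with adjusted p = 0.256 by limma. With slide as a block they were 0.32 and 0.34.

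The widest gap within a pair of detected probes was that of DITSSH111 and DITSSH111R2007a, which were named for it. DITSSH111 stood at -5.99, -5.85 and -6.26 in Giant Laf and at -7.15, -6.41 and -6.97 in La France, without overlap. Only 2 Giant Laf arrays and 1 La France array detected it. DITSSH111R2007a, well above background on all arrays, stood at -1.27, -1.41 and -1.60 against -1.67, -1.62 and -1.73, also without overlap. The differences were 0.81 (SE 0.22) for the first and 0.25 (SE 0.12) for the second. That of DITSSH111 was -0.04 with normexp.

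DITSSH46 was the only member well above background on all 3 arrays of one cultivar, Giant Laf, and on none of the other, and it is named for that. Among all detected probes 30 were so in Giant Laf and 4 in La France. It entered the tested probes through Giant Laf alone. It stood at -6.41, -6.14 and -6.25 in Giant Laf and at -6.18, -7.38 and -6.49 in La France. La France replicate 1 lay within the Giant Laf range, so the cultivars overlapped. The difference was 0.42 (SE 0.31, 95% confidence limits -0.33 and 1.16, adjusted p = 0.520 by limma), with La France not well above background. It was -0.09 with slide as a block and -0.08 with normexp, so no direction is given.

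Grouped by ending, the members had median differences of either sign. The median difference was -0.028 for the 116 members with no ending, 0.078 for the 39 with R2007a and -0.093 for the 14 with S2007a. At an unadjusted p below 0.05 there were 14 (12.1%), 4 (10.3%) and 2 (14.3%) of them, against 16.0% of all detected probes. The median SD of a single member within a cultivar was 0.22, 0.24 and 0.22 in the same order. The endings were not tested against each other.

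By brightness, the 20 members at an unadjusted p below 0.05 were spread over all 5 classes. Of the 20, 11 lay in the dimmest class, which also held 40.8% of all members. They were 15.9% of its 69 members, against 19.4% of the other probes there. In the next class the share was 5.71% (2 of 35) against 20.8%. In the third to the fifth class it was 13.3%, 13.6% and 7.14% against 16.0%, 13.2% and 10.8%. Members were at or below the other probes in 4 of the 5 classes and close to them in the other. These classes hold few members, and the differences between the shares were not tested.

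Levels of the members were closely alike on all arrays. Over the 169 probes the replicate 3 arrays of the cultivars had the highest correlation of any pair of arrays, r = 0.9964, ahead of La France replicates 1 and 2 with 0.9936. Over the other detected probes La France replicates 1 and 2 came first with 0.9914 and the replicate 3 arrays next with 0.9905. Giant Laf replicate 2 and La France replicate 1 had the lowest in both, 0.9716 over the DITSSH probes and 0.9750 over the others. Over the DITSSH probes the mean was 0.989 within a cultivar and 0.985 between cultivars, and over the others 0.986 and 0.982. La France replicate 1 was the highest array for 49 members (29.0%, against 18.0% of the other probes) and Giant Laf replicate 2 the lowest for 47 (27.8%, against 18.1%). These correlations are across probes, which share their arrays and their scaling, and describe these 6 arrays only.

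The classes with the prefixes DITNO and DITK are the most alike by name. Of 1166 DITNO probes 210 were detected (18.0%), and of 69 DITK probes 55 (79.7%). Their median differences were -0.17 and -0.23, against -0.013 for DITSSH. At an unadjusted p below 0.05 there were 5 higher (2.38%) and 18 lower (8.57%) DITNO probes. For DITK there were 1 higher (1.82%) and 9 lower (16.4%). Over all detected probes these shares were 10.6% higher and 5.36% lower. In limma, 0 probes of either class passed the adjusted threshold. The median pooled SD within a cultivar was 0.32 and 0.28, against 0.22 for DITSSH. La France replicate 1 was the highest array for 51.4% of the detected DITNO probes and 41.8% of the DITK probes, against 29.0% for DITSSH. Giant Laf replicate 2 was the lowest for 20.5% and 29.1%, against 27.8% for DITSSH. Neither trait was thus particular to DITSSH. No test of the classes against each other was made.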

How the data were processed

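Expression was measured on 6 single-colour arrays, 3 of Giant Laf and 3 of La France receptacle. Per the file headers, the scanner software was Agilent Feature Extraction 10.7.1.1, and the deposited intensities of each spot are a background-subtracted, detrended processed signal, the median signal of spot and local background, and flags. The authors also deposited a table of log2 values, whose making the labels do not state; it served as an alternative. DITSSH members and comparison classes were taken by identifier, with earlier results of these data known.

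Spots with outlier flags were left out, log2 processed signals averaged per probe, and each array's 75th percentile subtracted. Detected probes (at least a share of 0.5 of the spots well above background on at least 3 arrays) entered a limma 3.58.1 fit (lmFit, then eBayes, in R 4.3.3) on cultivar alone, two-sided and Benjamini-Hochberg adjusted over all 16339 probes. Intervals are at 95%. The fit was tested on simulated data. P-values set the cultivar difference against the spread between these arrays within a cultivar, moderated over all fitted probes. The number of arrays limits the precision.

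Named were the 2 members of smallest p in each direction, the 2 brightest, the 2 of widest SD and partners of those named by p; others are said to be chosen after their values were seen. The files hold no mean signal, so normexp (offset 50) used the median signal. The offset narrows the differences of dim probes by construction. Alternatives are given in the closing section. Between same-numbered arrays, deviations from the cultivar means correlated at 0.015, 0.195 and 0.133. With 1 value under 0.1, replicate numbers were not used as pairs.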

Additional observations from a re-analysis of the deposited data

How the results depend on the processing

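The count of 0 members past the adjusted p was the same under all 20 alternatives run, with the smallest adjusted p of a member between 0.0838 and 0.530. Slide 1 alone was chosen after seeing the data. The count at an unadjusted p below 0.05, 20 with all arrays, was 32 after quantile normalization, 10 with normexp, 43 with array weights, 46 without both replicate 3 arrays and 7 at an unadjusted p below 0.01. The last follows from the threshold, and for the others the cause was not tested. Leaving out single arrays gave 12 to 36: 16 and 13 without Giant Laf replicate 1 and 2, 12 and 21 without La France replicate 1 and 2, and 36 without Giant Laf replicate 3 or La France replicate 3. The replicate block gave 26 and 0 past the adjusted p, slide as a block 24, slide 1 alone 25 and averaging probes of 1 number 14 of 118. The counts over all detected probes, 2612 with all arrays, did not always move the same way: they were 2494 after quantile normalization, 1572 with slide as a block, 2395 with the replicate block, 1999 in slide 1 alone and 4284 with array weights. Without both replicate 3 arrays the members' share was 27.2% against 25.2% of all probes. Members without overlap numbered 108 (63.9%, against 60.6% of all probes) without both replicate 3 arrays. They numbered 32 to 76 without single arrays, 18.9% to 45.0% against 28.0% to 45.2% of all probes: 76 without Giant Laf replicate 3, 68 without La France replicate 3 and 48 without La France replicate 2.

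The median difference was -0.10 over all 289 probes without a filter and -0.11 with median centring. Over all probes tested the median moved the same way, from 0.024 to -0.032 and -0.074 in these settings. The members' median difference lay between -0.050 and 0.036 without single arrays. The median level was -5.44 with no filter, -2.81 over the 156 probes detected on all arrays, -0.97 with median centring, which moves the zero point, and -2.67 with normexp. It lay between -3.48 and -3.33 without single arrays. Of the 20 probes tracked by name, 17 kept their sign throughout. Most of the 20 were chosen by their p or their difference in these same arrays, so the kept signs are no separate support. DITSSH200 turned to -0.077 with normexp, -0.0025 with slide as a block or slide 1 alone, and ran from -0.24 to 0.79 without single arrays, at -0.20 and -0.24 without Giant Laf replicate 3 and La France replicate 2. DITSSH46 turned to -0.082 with normexp and -0.090 with slide as a block or slide 1 alone, and DITSSH111 to -0.043 with normexp. For dim probes the fold is limited by how far the signal stands over background.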
